A study of Mus musculus with 6 samples.

Results

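Transcripts of 10 immediate-early genes, the EGR factors Egr1, Egr2 and Egr3, the Krüppel-like factors Klf2, Klf4 and Klf6, the immediate early response genes Ier2 and Ier3, the nuclear receptor Nr4a1 and the antiproliferative factor Btg2, were compared between mouse thyroid tumor cells of 2 genotypes. The genes were taken by symbol, and all 10 were found among the 35027 genes measured. Cells positive for Kate were sorted from the tumors and their RNA was sequenced, in 3 libraries of YAP mice (replicates 1, 2 and 3) and 3 of BrafYAP mice (replicates 1, 2 and 6). Both genotypes carried a Cre transgene that is active in thyroid follicular cells, the RIK allele, which gives rtTA and the red fluorescent protein Kate after Cre recombination, and a tetO transgene for YAP S127A, a constitutively nuclear form of the Hippo effector YAP. All mice were given doxycycline (dox) chow, from 4 weeks of age by the labels and the study's methods, although a sentence of its results names a later start. BrafYAP mice in addition expressed Braf V600E from the endogenous locus, an oncogenic form of a kinase that activates ERK. The comparison therefore asks how these transcripts differ when mutant Braf is added to nuclear YAP, with no tumor or thyroid free of mutant YAP among the libraries. By the labels, 3 tumors were pooled for each library of YAP cells and 1 tumor was used for each of BrafYAP cells. The methods of the study instead describe a tumor per mouse for every replicate, without pooling. If the labels hold, pooling and genotype cannot be told apart.

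Immediate-early genes are transcribed within minutes of a stimulus without new protein synthesis, and their messenger RNAs are short-lived. Many are switched on when ERK phosphorylates ternary complex factors bound with serum response factor at CArG boxes, or through CREB at cyclic AMP response elements (CRE). Stress, heat and enzymatic tissue digestion can induce the same genes, and the tumors here were digested with collagenase for 1 h at 37 °C before sorting.

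About 20000 cells were collected per library, and the reads behind the deposited values came to 26.2 to 36.9 M per library. The array weights that limma gave each library were lowest for BrafYAP replicate 6 (0.299) and YAP replicate 1 (0.351), followed by YAP replicate 2 (0.567). BrafYAP replicate 6 and YAP replicate 1 are called the libraries that stood apart, and for several genes the log2 change without them is given as well. Without YAP replicate 2, 465 of 7276 genes passed the threshold used below, more than without any other single library. Tg, which encodes the thyroid hormone precursor thyroglobulin, ranged from 0.00965 to 3.62 over the libraries, and the summed value of 9 thyroid markers was 9.78 to 14.9 in YAP and 6.27 to 16.3 in BrafYAP libraries, against 805 to 2276 and 932 to 2242 for 5 epithelial markers. The summed value of 9 leukocyte markers was 1466 to 4991 in YAP and 555 to 1644 in BrafYAP libraries, with 4 of the 9 lower in BrafYAP without overlap. The endothelial and the fibroblast and pericyte lists, of 8 genes each, summed to 0.639 to 5.27 and 13.4 to 31.96 over all libraries, with overlap of the sums between the genotypes. Gene by gene, 1 epithelial marker was higher in BrafYAP without overlap, as were 2 of the fibroblast and pericyte list, where 1 was lower. In the thyroid and endothelial lists 0 were without overlap. Over 7319 genes tested, 11.8% were higher and 16.4% lower without overlap.

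The sequence upstream of the start is shown for 3 of the genes. Among the 7 genes matched, they hold the only CArG box (Egr2), the only full CRE (Btg2) and the most CRE cores (Nr4a1). In the RefSeq promoter table used here, on GRCm38.p6, 7 of the 10 genes were matched (Egr2, Klf2, Klf4, Klf6, Ier3, Nr4a1 and Btg2). The promoters of Egr1, Egr3 and Ier2 were not analysed here. The 250 bases before the start are given 5′ to 3′ on the strand of the gene. For Egr2 (chr10:67537619-67537868, plus strand) the third of 5 RefSeq starts was used. The windows of Egr2 and of Nr4a1 (chr15:101266596-101266845, plus strand) lie in introns of longer GENCODE transcripts, and that of Btg2 (chr1:134079156-134079405, minus strand) lies outside annotated genes. Capitals mark CArG boxes, the full CRE TGACGTCA and its core TGACG, read on both strands, so that a core on the other strand appears as its complement. A full CRE holds the core on both strands.
Egr2: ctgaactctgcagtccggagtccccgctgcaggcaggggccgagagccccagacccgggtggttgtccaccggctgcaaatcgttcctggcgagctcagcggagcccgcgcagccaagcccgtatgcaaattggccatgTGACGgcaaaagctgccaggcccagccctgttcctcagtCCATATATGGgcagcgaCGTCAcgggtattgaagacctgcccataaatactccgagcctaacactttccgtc
Btg2: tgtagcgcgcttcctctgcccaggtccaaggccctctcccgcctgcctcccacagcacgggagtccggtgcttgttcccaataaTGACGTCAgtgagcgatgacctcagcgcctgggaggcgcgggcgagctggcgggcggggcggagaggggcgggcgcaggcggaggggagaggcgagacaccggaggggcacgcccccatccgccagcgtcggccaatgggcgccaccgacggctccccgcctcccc
Nr4a1: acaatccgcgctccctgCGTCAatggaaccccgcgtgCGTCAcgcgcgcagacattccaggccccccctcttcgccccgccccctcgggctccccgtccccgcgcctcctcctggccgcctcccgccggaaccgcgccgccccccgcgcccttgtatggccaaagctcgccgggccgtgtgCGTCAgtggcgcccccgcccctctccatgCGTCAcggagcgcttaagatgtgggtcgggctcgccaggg
Egr2 was the single gene of the 7 with a CArG box, at 72 to 63 bases before the start, and 1.467% of 32851 mouse promoters of the same length held one. Btg2 was the single gene with the full CRE, 166 to 159 bases before the start (1.546% of all promoters). The CRE core was found in 5 of 7 genes, 4 times in Nr4a1 (17.77% of all promoters). The site bound by EGR factors, GCGNGGGCG on both strands, was present in Klf2, Klf4, Nr4a1 and Btg2 (4.697% of all promoters), with 2 matches in Klf4. The ETS core CCGGAA (12.03% of all promoters) and the TEAD core GGAATG (12.64%) were each found in Nr4a1 alone, and the AP-1 site TGANTCA (6.749%) and the TATA box TATAAA (12.37%) in none of the 7. These matches describe the letters of the window and not bound sites.

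**Figure D1:**
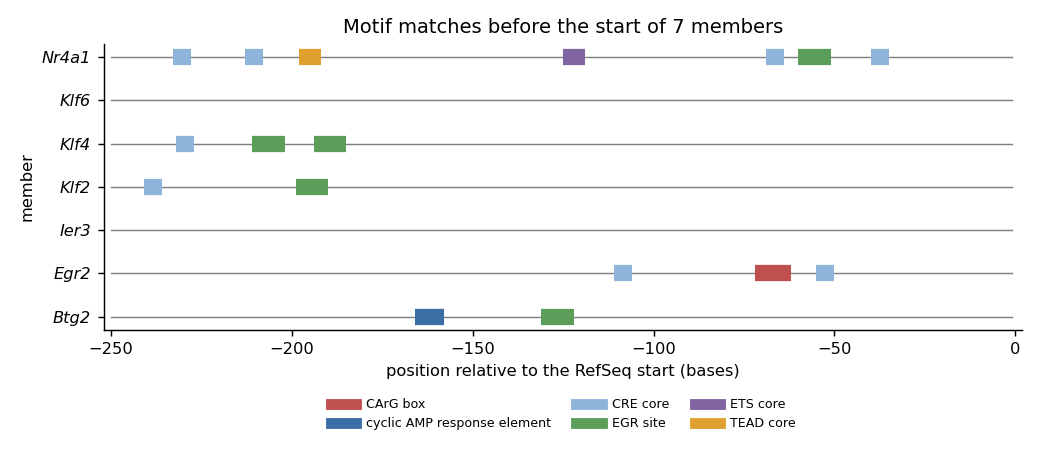
Motif matches in the 250 bases before the RefSeq start of 7 genes, with the distance from the start in bases on the x axis and 1 line per gene. Coloured blocks are matches on either strand, and cores inside the full CRE of Btg2 are not drawn again. Egr2 carries the CArG box and Btg2 the full CRE, whereas Klf6 and Ier3 have no match.

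Across the 10 genes, Egr1 and Ier2 were higher in BrafYAP cells in every library, whereas the libraries of the genotypes overlapped for the other 8 genes. Neither passed the threshold of a limma adjusted p-value of 0.05. Of the 9 genes with a mean deposited value of at least 1, which excluded Egr3, 0 passed, where 0.246% of 7319 genes tested passed in either direction and 0.082% were higher in BrafYAP. Without adjustment, 2 of 9 had a p-value under 0.05, both higher, against 19.9% of all genes in either direction, 10.7% higher and 9.17% lower. The libraries of both genotypes were separate for 2 of 9, both higher in BrafYAP, against 28.2% of all genes, 11.8% higher and 16.4% lower, so the share without overlap was close to that of genes at large. The median log2 change of the 9 was 0.23, against -0.06 over all genes tested, and 8 of 9 were higher in BrafYAP on average, against 44.7% of all genes. On the reads recovered from the deposited values, which include Egr3, 0 of 10 passed, and the share of all 16834 genes that passed was 0%, with 3404 at an unadjusted p-value under 0.05.

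**Figure D2:**
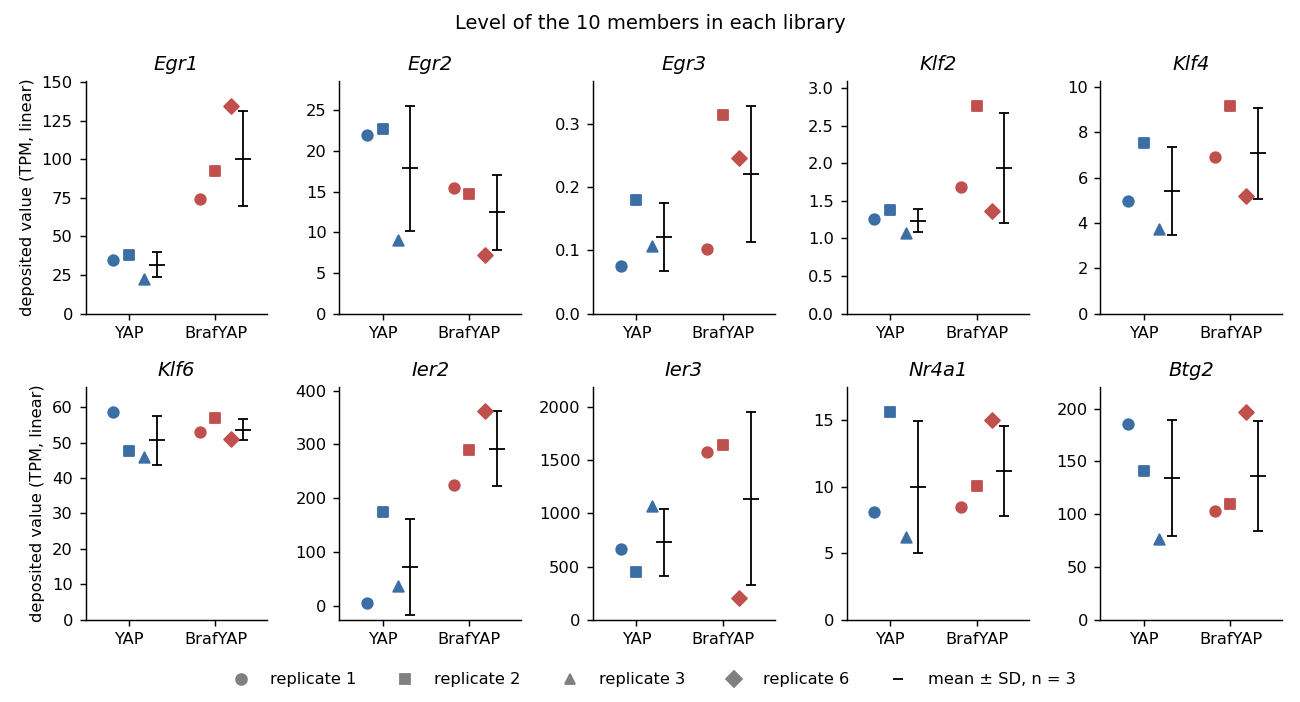
Deposited value (TPM, linear axis) of each gene in each of the 6 libraries, with the mean and SD (n = 3) beside the points of each genotype. The 3 BrafYAP libraries of Egr1 (74.1 to 134) and of Ier2 (225 to 363) lie above all YAP libraries, and the points of the other 8 genes overlap.

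Egr1, a zinc finger transcription factor and a widely used readout of ERK signaling, had deposited values of 34.7, 37.7 and 22.4 in YAP replicates 1, 2 and 3, and of 74.1, 92.6 and 134 in BrafYAP replicates 1, 2 and 6. The lowest BrafYAP library was thus above the highest YAP library, with a 1.68-fold spread between the YAP extremes and a 1.81-fold spread between the BrafYAP extremes. YAP cells had a mean of 31.6 ± 8.09 (SD, n = 3) and BrafYAP cells one of 100.4 ± 30.9 (SD, n = 3), a ratio of 3.18. The log2 change was 1.63 ± 0.34 (SE), with a 95% confidence interval of 0.83 to 2.42 and a limma adjusted p of 0.0863. With each library left out in turn the log2 change stayed between 1.40 and 1.82. Without YAP replicate 2 the gene passed, at a limma adjusted p of 0.0492, as 1 of 465 among 7276 genes tested. It did not pass without any other single library, where the limma adjusted p reached 0.247. Without both YAP replicate 1 and BrafYAP replicate 6, the log2 change was 1.48 (limma adjusted p = 0.159). Egr1 (ENSMUSG00000038418.7) is at chr18:34859823-34864984 on mm10, plus strand.

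Egr2, a related zinc finger factor best known for its part in myelination and also expressed in macrophages and lymphocytes, did not follow Egr1. Its values were 21.9, 22.6 and 9.03 in YAP replicates 1, 2 and 3, and 15.5, 14.7 and 7.15 in BrafYAP replicates 1, 2 and 6. YAP replicate 3 was lower than BrafYAP replicates 1 and 2, so the groups overlapped, and the lowest value was in BrafYAP replicate 6, where Egr1 was highest. Its log2 change was -0.45 ± 0.44 (SE; 95% confidence interval -1.50 to 0.60; limma adjusted p = 0.593). The 2 libraries with the highest Egr2, YAP replicates 1 and 2, also had the highest summed leukocyte markers (4991 and 3903), and the library with the lowest Egr2 had the lowest (555). In the remaining libraries the leukocyte sums were 1466 in YAP replicate 3, 1644 in BrafYAP replicate 1 and 1144 in BrafYAP replicate 2. The part of leukocytes in the Egr2 result was not tested. In bulk samples, fewer cells of a type and less RNA per cell cannot be told apart. Without YAP replicate 1 and BrafYAP replicate 6 the log2 change of Egr2 was 0.06.

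Egr3, the third EGR factor of the group, had the fewest reads. It was represented by 12, 24 and 17 reads in YAP replicates 1, 2 and 3, and by 15, 65 and 45 reads in BrafYAP replicates 1, 2 and 6. BrafYAP replicate 1 lay within the YAP range and the other BrafYAP libraries above it. On reads returned to the scaling of the deposited table, the log2 change was 0.78 ± 0.65 (SE; 95% confidence interval -0.75 to 2.30; limma adjusted p = 0.521). The interval includes 0 and differences of either sign.

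Of the corepressors that bind EGR factors, Nab2 was tested. Its values were 0.904, 7.98 and 3.39 in YAP replicates 1, 2 and 3 and 8.25, 7.18 and 6.49 in BrafYAP replicates 1, 2 and 6, with a log2 change of 0.97 ± 0.53 (SE), or 0.40 ± 0.35 without YAP replicate 1. The BrafYAP libraries lay close together, and YAP replicate 2 fell within their range. Nab1 was under the minimum, and 0 of 2 corepressors passed the threshold.

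The relation of the EGR factors within a library is given per length, as TPM recomputed from the recovered reads with exonic gene length. The ratio of the level of Egr1 to that of Egr2 was 0.922, 0.970 and 1.45 in YAP replicates 1, 2 and 3, and 2.79, 3.66 and 10.96 in BrafYAP replicates 1, 2 and 6. Both factors were at about the same level in YAP cells, and Egr1 exceeded Egr2 in every BrafYAP library. The ratio of Egr1 to Nr4a1 was 0.841, 0.475 and 0.712 in the YAP libraries and 1.71, 1.81 and 1.76 in the BrafYAP libraries. The ratio was nearly constant among the BrafYAP tumors, and above every YAP library. These ratios were chosen after their values were seen and were not tested.

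Ier2, a nuclear protein induced early by growth factors, showed the largest difference of the 10 and also the largest spread. Its values were 6.46, 174 and 36.3 in YAP replicates 1, 2 and 3, and 225, 290 and 363 in BrafYAP replicates 1, 2 and 6. The BrafYAP libraries were all above the YAP libraries, but YAP replicate 2 came close to BrafYAP replicate 1, and YAP replicate 1 was far below everything else. The YAP extremes differed 26.9-fold and the BrafYAP extremes 1.61-fold. The SD of the log2 values among the YAP libraries exceeded that of 99.9% of the genes tested. YAP cells had a mean of 72.2 ± 89.3 (SD, n = 3), against 292 ± 69.0 (SD, n = 3) in BrafYAP cells. The log2 change was 2.98 ± 1.03 (SE), with a 95% confidence interval of 0.55 to 5.41 and a limma adjusted p of 0.175. Leaving out YAP replicate 1 gave 1.83. Leaving out YAP replicate 2 gave 4.11, where the gene passed (limma adjusted p = 0.0367), as 1 of 465 among 7276 genes tested. Over the 6 fits that left out 1 library each, the largest limma adjusted p was 0.356. Without YAP replicate 1 and BrafYAP replicate 6 the log2 change was 1.67 (limma adjusted p = 0.331). Ier2 (ENSMUSG00000053560.4) is a gene of 1522 bases without introns, at chr8:84661331-84662852 on mm10, minus strand.

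Ier3, a stress-induced protein with effects on apoptosis and ERK signaling, was the most abundant of the 10 genes per length in 5 of 6 libraries. Its deposited values were 665, 451 and 1072 in YAP replicates 1, 2 and 3, and 1576, 1638 and 201 in BrafYAP replicates 1, 2 and 6. BrafYAP replicates 1 and 2 were above every YAP library, whereas BrafYAP replicate 6 was below every YAP library. The BrafYAP extremes differed 8.13-fold, and the SD of the log2 values there exceeded that of 98.5% of the genes tested. The log2 change was 0.23 ± 0.83 (SE; 95% confidence interval -1.73 to 2.19; limma adjusted p = 0.901). It was 1.23 without BrafYAP replicate 6 and -0.28 without BrafYAP replicate 2. Without YAP replicate 1 and BrafYAP replicate 6 together it was 1.21 (limma adjusted p = 0.298). Ier2 and Ier3 thus went opposite ways in BrafYAP replicate 6, where Ier2 was at its highest and Ier3 at its lowest, and the ratio of their levels per length was 1.64 there, against 0.00885 to 0.351 in the other 5 libraries.

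The 3 Krüppel-like factors are zinc finger proteins that bind GC-rich sequence. Klf2, known from endothelial cells and quiescent lymphocytes, had values of 1.26, 1.38 and 1.07 in YAP replicates 1, 2 and 3, and of 1.68, 2.76 and 1.37 in BrafYAP replicates 1, 2 and 6. BrafYAP replicate 6 was just below YAP replicate 2, and this pair made the groups overlap. They did not overlap once the reads were expressed per exonic length or as a share of the reads of the library. The log2 change was 0.37 ± 0.23 (SE; 95% confidence interval -0.16 to 0.90; limma adjusted p = 0.400), from 82 to 278 reads per library. The summed endothelial markers (0.639 to 5.27) were highest in BrafYAP replicate 6 and lowest in BrafYAP replicate 2, the library with the highest Klf2. The part of endothelial cells in the Klf2 result was not tested.

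Klf4, a factor of epithelial differentiation and pluripotency, had values of 4.98, 7.53 and 3.74 in YAP replicates 1, 2 and 3, and of 6.90, 9.17 and 5.18 in BrafYAP replicates 1, 2 and 6. The genotypes interleaved, with a log2 change of 0.35 ± 0.31 (SE; 95% confidence interval -0.39 to 1.08; limma adjusted p = 0.557). Klf6, a widely expressed factor induced by injury, had the smallest range of the 9 genes tested on deposited values, at 58.6, 47.5 and 45.9 in YAP replicates 1, 2 and 3 and 52.9, 56.9 and 51.1 in BrafYAP replicates 1, 2 and 6. Its highest and lowest library were both YAP. For Klf6 the log2 change was 0.09 ± 0.24 (SE; 95% confidence interval -0.48 to 0.65; limma adjusted p = 0.863). Only 6.72% of the genes tested had a smaller SD of the log2 values among BrafYAP libraries than Klf6.

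Nr4a1, an orphan nuclear receptor also called Nur77, had values of 8.11, 15.6 and 6.20 in YAP replicates 1, 2 and 3, and of 8.51, 10.1 and 15.0 in BrafYAP replicates 1, 2 and 6. The highest and the lowest library were both YAP, and the log2 change was 0.21 ± 0.38 (SE; 95% confidence interval -0.68 to 1.11; limma adjusted p = 0.781). The deposited values of Nr4a1 are low for its reads because they were divided by a genomic span of 20527 bases, of which 3509 are exonic. Btg2, which recruits the deadenylase that shortens messenger RNA tails and is a target of p53, had values of 186, 140 and 76.3 in YAP replicates 1, 2 and 3, and of 103, 110 and 197 in BrafYAP replicates 1, 2 and 6. The YAP mean was 134 ± 55.0 (SD, n = 3) and the BrafYAP mean 137 ± 52.1 (SD, n = 3). Between them the log2 change was 0.05 ± 0.42 (SE; 95% confidence interval -0.95 to 1.06; limma adjusted p = 0.959). The highest value of Btg2 was in BrafYAP replicate 6 and the second highest in YAP replicate 1, the libraries that stood apart.

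**Figure D3:**
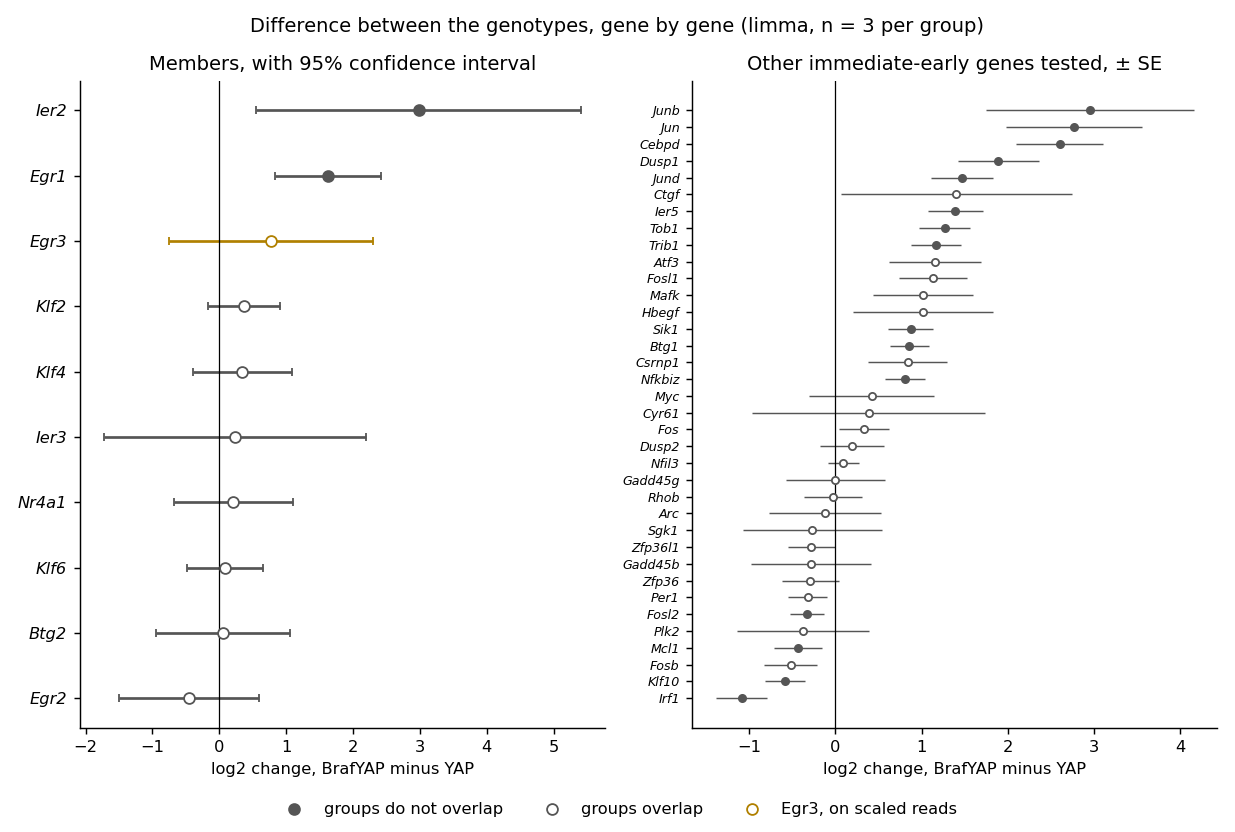
Log2 change (BrafYAP minus YAP, limma, n = 3 per group) of the 10 genes with 95% confidence intervals on the left, and of 36 other immediate-early genes with their SE on the right. Filled points are genes whose groups do not overlap, and Egr3 is on scaled reads. The intervals of Ier2 (0.55 to 5.41) and Egr1 (0.83 to 2.42) lie above 0 without adjustment, and those of the other 8 genes include 0.

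Levels were ordered per length, as TPM with exonic length, within each genotype. In YAP cells Ier3 came first (2114 ± 1006, SD, n = 3), followed by Btg2 (500 ± 196), Klf6 (268 ± 35.0), Ier2 (184 ± 222), Nr4a1 (150.4 ± 69.3), Egr1 (94.3 ± 20.7), Egr2 (91.0 ± 36.6), Klf4 (24.4 ± 7.75), Klf2 (4.56 ± 0.38) and Egr3 (0.385 ± 0.158). From Btg2 down to Egr2 each gene overlapped its neighbour in the order, whereas Ier3, Klf4, Klf2 and Egr3 were each separated from theirs in the YAP libraries. In BrafYAP cells the order was Ier3 (3390 ± 2429), Ier2 (790 ± 183), Btg2 (530 ± 197), Egr1 (312 ± 93.5), Klf6 (294 ± 21.1), Nr4a1 (177 ± 52.2), Egr2 (66.6 ± 25.0), Klf4 (33.5 ± 9.98), Klf2 (7.47 ± 2.94) and Egr3 (0.732 ± 0.366), each as mean ± SD of 3 libraries. From Ier3 down to Klf6 each gene overlapped its neighbour in this order, as did Egr2 and Klf4, whereas Nr4a1 and Klf2 were separated from both neighbours. By mean, Ier2 came before Btg2 and Klf6, and Egr1 before Klf6 and Nr4a1, the reverse of the YAP order. Egr1 exceeded Klf6 only in BrafYAP replicate 6 (413 against 277). It was below Klf6 in BrafYAP replicates 1 (229 against 288) and 2 (293 against 318). In BrafYAP replicate 6 Ier2 (969) and Btg2 (756) exceeded Ier3 (590). Within single libraries, YAP replicate 3 held the lowest deposited value for 6 of the 10 genes, BrafYAP replicate 2 the highest for 4, and BrafYAP replicate 6 the highest for 3 and the lowest for 2.

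The 9 genes tested did not share 1 profile over the libraries. Their range over the 6 libraries on the log2(value + 1) scale ran from 0.35 for Klf6 to 5.61 for Ier2. The genes outside the group whose centred profile was closest to the mean profile of the 9 were Dr1, Cggbp1, Pitpna and Gm45224, with root mean square differences of 0.06 to 0.10 on the log2 scale over 6 libraries. Of the 9 themselves, Klf4 (0.18) and Klf2 (0.22) were nearest to that mean profile and Ier2 (1.68) and Ier3 (1.09) farthest. The genes closest to Ier2 alone, looked up after its values were seen, were Hspa1b (0.22), Hspa1a (0.27), Junb (0.28), Gdf15 (0.28) and Stub1 (0.29). Those closest to Egr1, looked up in the same way, were Ctla2a (0.17), Fzd1 (0.19), Gm5865 (0.22), 2410022M11Rik (0.23) and Kazald1 (0.23). Hspa1a and Hspa1b encode near-identical heat-shock proteins whose reads the quantification could divide between them, and Junb is an AP-1 subunit.

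The libraries stood in the order YAP 1, YAP 3, YAP 2, BrafYAP 1, BrafYAP 2, BrafYAP 6 from low to high for Ier2. Of 36 other immediate-early genes tested, 7 had exactly this order (Jun, Jund, Ier5, Trib1, Cebpd, Tob1 and Btg1), as did 2 of 10 heat-shock genes (Hspa1a and Hspa1b) and 223 of 7318 genes tested (3.05%). None of the other 8 genes of the group tested had it. For Hspa1a the values were 10.6, 270 and 45.3 in YAP replicates 1, 2 and 3, and 306, 537 and 791 in BrafYAP replicates 1, 2 and 6, with a log2 change of 3.27 ± 1.06 (SE), or 2.18 ± 0.81 without YAP replicate 1. For Jun, an AP-1 subunit, they were 6.06, 55.0 and 15.4, and 71.8, 113 and 246. Both genes repeated the low YAP replicate 1 and the high YAP replicate 2 of Ier2. The order of Egr1 differed from that of Ier2 in YAP replicates 1 and 3 only, and 22 of 7318 genes tested (0.301%) shared it, with 0 of the 36 other immediate-early genes among them. The part of digestion and sorting in these profiles was not tested.

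**Figure D4:**
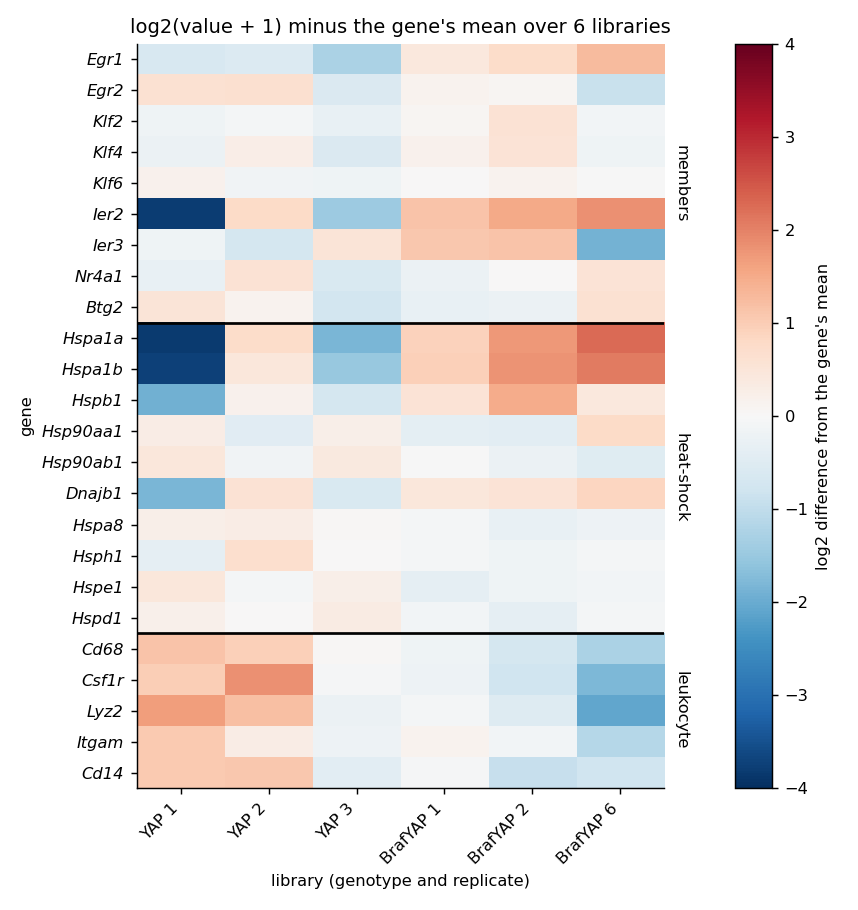
Log2(value + 1) of each gene minus its mean over the 6 libraries, in colour, for the 9 genes tested, 10 heat-shock genes and 5 leukocyte markers (rows) in each library (columns). Ier2, Hspa1a and Hspa1b share a low YAP replicate 1 and high BrafYAP libraries, Ier3 is low in BrafYAP replicate 6, and the leukocyte markers are highest in YAP replicates 1 and 2.

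Of 44 other immediate-early genes, 36 were tested and 0 passed the threshold in limma, on deposited values or on reads. Unadjusted limma p-values under 0.05 were found for 14 of the 36, 12 higher and 2 lower, against 10.7% higher and 9.17% lower of all genes. Every BrafYAP library lay above every YAP library for 11 genes and below for 4, against 11.8% and 16.4% of all genes. The median log2 change was 0.40. The genes with the largest differences were Junb (2.95 ± 1.20, SE), Jun (2.77 ± 0.79), Cebpd (2.60 ± 0.51), which encodes a C/EBP factor, and Dusp1 (1.89 ± 0.47), a phosphatase that inactivates MAP kinases. Without YAP replicate 1 they were 1.59 ± 0.75, 2.07 ± 0.71, 2.48 ± 0.60 and 1.91 ± 0.56 (SE) in the same order, and without both libraries that stood apart Jun was 1.59 ± 0.62. Their order depended on the scale, since Cebpd had a mean of only 0.704 in YAP libraries. On recovered reads of all libraries Cebpd was 3.77 ± 0.64, Junb 3.01 ± 1.22, Jun 2.87 ± 0.82 and Dusp1 1.92 ± 0.50 (SE). Fos, the partner of Jun in AP-1, was named after its values were seen. It had values of 568, 658 and 382 in YAP replicates 1, 2 and 3 and 605, 731 and 650 in BrafYAP replicates 1, 2 and 6, with overlap and a log2 change of 0.34 ± 0.29 (SE).

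Of 24 further members of the same gene families, 6 were tested, 4 of which are also in the list of other immediate-early genes. Ier5, a relative of Ier2, had values of 1.59, 3.54 and 2.64 in YAP replicates 1, 2 and 3 and 5.65, 8.80 and 10.9 in BrafYAP replicates 1, 2 and 6, without overlap, with a log2 change of 1.39 ± 0.32 (SE). Btg1 and Tob1, antiproliferative relatives of Btg2, were likewise higher in every BrafYAP library, with log2 changes of 0.86 ± 0.22 and 1.27 ± 0.29 (SE), whereas Btg2 itself was not. Tob2 (0.24 ± 0.37, or -0.053 without YAP replicate 1) and Klf3 (0.09 ± 0.16) overlapped. Klf10 was lower in every BrafYAP library (-0.58 ± 0.24, SE), in contrast to Klf2, Klf4 and Klf6, whose groups overlapped. Of these 6 genes 0 passed in limma, and 4 had an unadjusted p-value under 0.05, 3 of them higher. Over all genes tested, 19.9% had such a p-value in limma, with 10.7% higher. Whether these relatives differ from the 10 genes was not tested.

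Of 13 regulators, 5 were tested and 0 passed in limma, with 0 at an unadjusted p-value under 0.05 and 0 without overlap. Srf, Creb1 and the ternary complex factor Elk4 were under the minimum mean and not among the 5. On reads, 6 further regulators were compared and 0 passed. Of these, Mef2c was lower (-1.56 ± 0.43, SE) and Map2k5 higher (1.04 ± 0.30) in every BrafYAP library, and the others overlapped. Both had low deposited values, with YAP means of 0.080 and 0.059. Among the 5 tested on deposited values, the largest difference was that of Crtc2, a CREB coactivator (0.85 ± 0.37, SE). Those of Elk3 (0.36 ± 0.22), Elk1 (0.35 ± 0.27) and Mapk7 (-0.26 ± 0.47), which encodes ERK5, came next. Without YAP replicate 1 Crtc2 was 0.50, Elk1 0.18 and Mapk7 -0.74, and without BrafYAP replicate 6 Elk3 was 0.56, Elk1 0.59 and Mapk7 0.0087. Among 10 transcripts read as ERK output, 7 were tested and 0 passed in limma. Unadjusted, 6 of the 7 had a limma p-value under 0.05, all higher, against 10.7% of all genes. The median log2 change of the 7 was 1.38, with Dusp6 at 2.36 ± 0.53, Dusp4 at 2.17 ± 0.37, Ccnd1 at 1.58 ± 0.53 and Etv4 at 1.38 ± 0.24 (SE). Without YAP replicate 1 Dusp6 was at 1.80 ± 0.37 and Ccnd1 at 1.01 ± 0.33 (SE). The log2(value + 1) scale understates low genes such as Dusp4, whose mean was 0.151 in YAP and 4.63 in BrafYAP libraries. On recovered reads of all libraries, Dusp4 was at 4.95 ± 0.67, Etv4 at 2.45 ± 0.44, Dusp6 at 2.42 ± 0.55 and Ccnd1 at 1.63 ± 0.55 (SE). Among 10 heat-shock genes, all tested, 0 passed. Without overlap 3 were higher and 3 lower, against 11.8% and 16.4% of all genes. The median log2 change of the 10 was -0.13, although Hspa1a, Hspa1b (3.22 ± 0.97), Hspb1 (1.63 ± 0.57) and Dnajb1 (1.24 ± 0.58) had log2 changes above 1. Hspa1b was at 2.15, Hspb1 at 1.09 and Dnajb1 at 0.63 without YAP replicate 1.

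**Figure D5:**
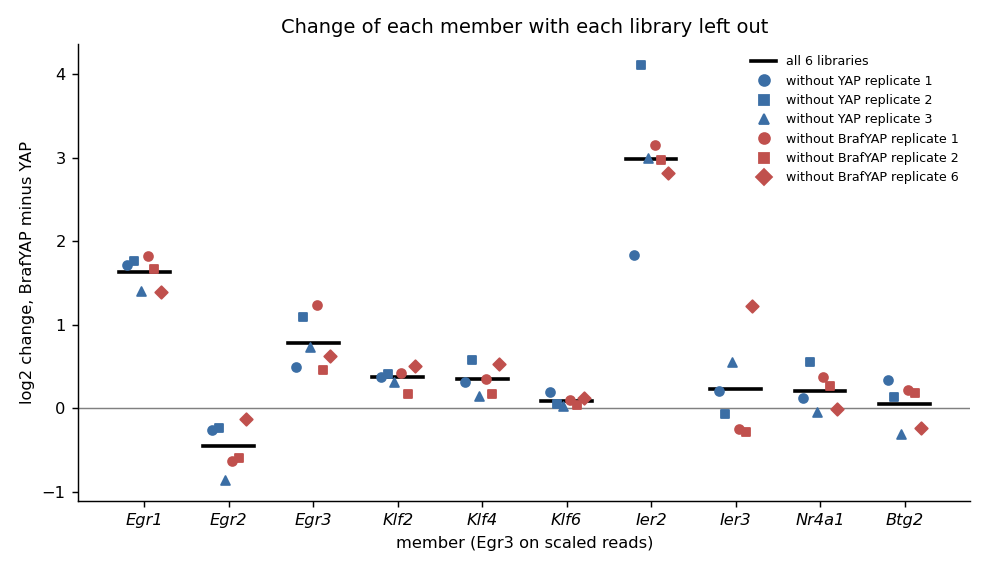
Log2 change (BrafYAP minus YAP) of each gene with all 6 libraries (black line) and with each library left out in turn (points, by the library removed). Egr1 stays between 1.40 and 1.82 and Ier2 between 1.83 and 4.11, whereas Ier3, Nr4a1 and Btg2 have points on both sides of 0.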

How the data were processed

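Bulk RNA-seq of 3 YAP and 3 BrafYAP libraries, grouped by GEO's titles, used 12 cycles of cDNA amplification, 8 cycles of library PCR and paired reads of 50 nt. Per the labels and the study's methods, bcl2fastq 2.2, STAR 2.6.1d and Partek on mm10 with Ensembl release 95 were used. The authors deposited TPM (transcripts scaled by length and depth) plus an offset of 0.0001, in 1 table of 35027 genes whose columns each sum to 181218. Low values (under 200 reads) times genomic span gave whole multiples of one step per library, within 0.05, for 71.7 to 76.0% of values, against 22.3 to 24.9% with exonic length, so the deposited TPM had been divided by span, introns included. Reads were recovered as (value - 0.0001) × span / step for 34645 symbols at one locus in GENCODE M21, and TPM with exonic length was recomputed from them. None of the 10 genes overlaps another annotated gene. The labels do not tie libraries to mice, while the study's methods give a tumor per mouse for each replicate. P-values measure the spread between these samples, which by the labels hold 3 pooled tumors each in YAP and 1 tumor each in BrafYAP. Read numbers within a library do not measure that spread.

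TPM are not counts, so limma 3.58.1 (R 4.3.3; lmFit, eBayes with a trend) was run on log2(value + 1), two-sided, where the mean reached 1. P-values were adjusted by Benjamini-Hochberg over all genes tested, at a threshold of 0.05. This scale understates the change of low genes. Egr3 was compared on log2(scaled reads + 1), at a mean of at least 10 reads. The method was tested on simulated data with the same spread for every gene and library, which is simpler than these data. Named genes were the 10 genes, at most 4 of each other list by size of change, the tested relatives of the 10 genes, and the 5 genes of most similar profile, of which 1 is not reported here. Fos, Mef2c, Map2k5, the genes that share the library order of Ier2 and those closest to Ier2 or Egr1 alone were chosen after their values were seen. The genes, lists and tests were chosen with earlier results of these data known. Alternatives were pseudocount 0.1, a minimum mean of 10 or none, quantile or median-ratio scaling, eBayes without a trend, array weights (estimated gene by gene, since the joint estimate did not converge), a replicate block, recovered reads and each library left out. Exonic-length TPM, reads as a share of the library total and the removal of both libraries that stood apart, and log2 changes of other named genes without them, were added after seeing the data. Protein sequences were not used here.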

Additional observations from a re-analysis of the deposited data

How the results depend on the processing

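The number of genes past the threshold, 18 of 7319, moved with nearly every choice. It was 1 with eBayes without a trend, with median-ratio scaling and with a pseudocount of 0.1, 3 with a minimum mean of 10, 62 with exonic-length TPM (26 higher, 36 lower) and with reads scaled to the library total (25 higher, 37 lower), 79 with quantile normalization (41 higher, 38 lower, against 6 and 12 as reported) and 1393 with array weights (888 higher, 505 lower). It was 0 in limma with the replicate block, without a filter and on recovered reads, with 987, 3891 and 3404 genes at an unadjusted p-value under 0.05. With 1 library left out it ranged from 0 to 465. The 465, without YAP replicate 2, were 404 higher and 61 lower, and it was 0 without YAP replicate 1. Without both libraries that stood apart it was 15 (6 higher, 9 lower). Median-ratio scaling moved the median log2 change of all genes by 0.10, from -0.06 to 0.04, and reversed none of the 10 genes.

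Of the 9 genes tested, 2 passed with array weights (Egr1, limma adjusted p = 0.00825, and Ier2, limma adjusted p = 0.0171), where 1393 of 7319 genes passed. With 1 library left out 0 to 2 of the 9 passed, the 2 without YAP replicate 2, where 465 of 7276 genes passed. Array weights gave YAP replicate 1 and BrafYAP replicate 6 little weight (0.351 and 0.299), followed by YAP replicate 2 (0.567), BrafYAP replicates 1 (2.18) and 2 (2.54) and YAP replicate 3 (3.03). Those without overlap numbered 2 to 5 with 1 library left out and 5 without both libraries that stood apart (Egr1, Klf2, Klf6, Ier2 and Ier3). Of all genes tested, 34.2 to 49.6% did not overlap with 1 library left out and 50.5% without both, against 28.2% with all libraries. Of 174 alternative values for single genes, 158 kept direction and side of the threshold, 4 passed in addition and 12 reversed. Egr2 was 0.34 with array weights and 0.064 without both libraries. Nr4a1 was -0.26 with the replicate block and -0.092 without both libraries, and Btg2 was -0.60 with the replicate block. Ier3 was 1.55 with the replicate block and 1.21 without both libraries. With 1 library left out, Ier3 ranged from -0.28 to 1.23, Nr4a1 from -0.047 to 0.56 and Btg2 from -0.30 to 0.33. The causes were not tested. The direction held for Egr1 (1.17 to 1.82) and Ier2 (1.67 to 4.11) under the 18 alternatives run for each.

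Only replicate numbers 1 and 2 occur in both genotypes, and deviations from the group means correlated at -0.05 and 0.06 over 7319 genes, so these samples share only a number. With the replicate block 0 of the 9 genes passed. Array weights, trend, pseudocount, filter and block do not alter which groups overlap, so no value was computed for them. Depth was lowest for Egr3 (12 to 65 reads) and Klf2 (82 to 278 reads).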
